A study of Homo sapiens with 12 samples.

Results

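The genes of the mTORC1 nutrient-sensing machinery were followed through the RNA of HEK293T cells, an established line of human embryonic kidney origin. The set was fixed by a list of symbols and holds 34 genes in 7 groups: mTORC1 (MTOR, RPTOR, MLST8, AKT1S1, DEPTOR), TSC with its target RHEB (RHEB, TSC1, TSC2, TBC1D7), Rag-Ragulator with SLC38A9 (RRAGA, RRAGB, RRAGC, LAMTOR1 to LAMTOR5, SLC38A9), GATOR (NPRL2, NPRL3, DEPDC5, WDR24, WDR59, MIOS, SEH1L, SEC13), sestrins (SESN1, SESN3), KICSTOR (KPTN, ITFG2) and AMPK (PRKAA1, PRKAA2, PRKAB1, PRKAG1). All 34 symbols had a single row among the 41878 rows of the count table, and all 34 were among the 18030 genes with enough counts to be tested. Every library came from cells that had received 1 µg of plasmid with Effectene, either a control vector or a construct for TRPML3, the endolysosomal cation channel encoded by MCOLN3. Before RNA extraction the cells stood in 10% serum (fed) or in 0% serum for 4 h (starved), a treatment the submitters used to induce autophagy. This gave 4 groups of 3 biological replicates: vector fed, vector starved, TRPML3 fed and TRPML3 starved. There was no untransfected group, and the labels do not state which promoter drives TRPML3 or what share of the cells took up the plasmid.

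mTORC1 is a kinase complex that promotes protein synthesis and restrains autophagy when nutrients and growth factors are present. Amino acids act through the Rag GTPases, which are anchored on the lysosome by Ragulator and bring mTORC1 to the lysosomal surface. GATOR1 switches the Rags off, GATOR2 opposes GATOR1, sestrins such as SESN1 hold GATOR2 in check when leucine is scarce, and KICSTOR places GATOR1 on the lysosome. Growth factors act through the TSC complex, which switches off the GTPase RHEB, the direct activator of the kinase. AMPK, the sensor of low cellular energy, acts on both TSC2 and RPTOR. Most of this control is exerted on proteins by binding, phosphorylation and localisation, none of which RNA counts record.

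Library totals ran from 33101540 to 43700547 counts, and counting error is small for most of these genes. The exception is WDR24, with 15, 21 and 28 counts in 3 of the fed libraries. MCOLN3 stood at 9.31 to 18.5 CPM (counts scaled to a common library total, with the trimmed mean of M-values, TMM) in the 6 vector libraries and at 4929 or more in the 6 TRPML3 libraries, as labelled. Its level differed between TRPML3 libraries, with 6211, 4929 and 39970 CPM for replicates 1 to 3 with serum and 41360, 58220 and 16900 CPM when starved. The TRPML3 comparisons between serum states thus set libraries with different amounts of the transfected transcript side by side, and its part in the results below was not tested. Among the markers used to check the line, VIM, NEFL, NEFM, KRT8, KRT18 and CDH2 were each at 30.4 CPM or more in every library, while PAX2 (0.839 to 5.33 CPM) and LHX1 (1.92 to 14.6 CPM) were low. PTPRC and COL1A2 did not pass 0.115 CPM in any library, PECAM1 did not pass 0.494 CPM, ALB reached 2.05 CPM and COL1A1 reached 20.6 CPM. The fed libraries numbered 3 stood nearer to the starved libraries than to their own group. The vector fed replicate 3 library had a mean rank correlation over genes of 0.936 with its own group and of 0.951 with vector starved replicates 1 and 2. For TRPML3 fed replicate 3 these values were 0.935 and 0.945. Smaller differences in the same direction were found for vector fed replicate 2 (0.945 and 0.948) and TRPML3 starved replicate 3 (0.930 and 0.932), and vector starved replicate 3 was nearer to its own group (0.939 and 0.935). The mitochondrial share of counts was 4.83% to 5.70% in the libraries numbered 3, 2.81% to 4.40% in those numbered 1 and 1.05% to 2.52% in those numbered 2. The labels do not say what the number marks. It was tested as a term beside group, and values without the libraries numbered 3 are given where they move a named value. In bulk RNA a change in the mix of cells, such as transfected and untransfected cells, and a change per cell cannot be told apart.

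The promoters of 29 of the 34 genes were found in the RefSeq promoter table (GRCh38.p14), in 39 windows that each run from 250 bases before a transcription start to 50 after it. WDR24, RRAGA, DEPTOR, MLST8 and AKT1S1 were not matched. The E-box core CACGTG, which reads the same on both strands and is bound by TFEB and TFE3, the transcription factors that mTORC1 keeps out of the nucleus, was present in 6 of the 29: TSC2, RRAGB, RRAGC, LAMTOR1, LAMTOR4 and NPRL3. It was present in 2548 of all 35116 windows (7.26%) and in at least 1 window of 8.77% of all genes in the table. The stretches whose core begins before the start are shown because they set the lysosomal scaffold genes and TSC2 side by side; each runs 5′ to 3′ on the strand of its gene, with the E-box core in capitals.

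LAMTOR1, chr11:72103440-72103479, minus strand: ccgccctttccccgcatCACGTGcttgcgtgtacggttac
LAMTOR4, chr7:100148887-100148926, plus strand: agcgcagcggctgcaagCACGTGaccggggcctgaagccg
RRAGB, chrX:55717617-55717656, plus strand: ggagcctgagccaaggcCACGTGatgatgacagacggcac
RRAGB, chrX:55717707-55717746, plus strand: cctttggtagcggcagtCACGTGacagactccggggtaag
RRAGC, chr1:38859862-38859901, minus strand: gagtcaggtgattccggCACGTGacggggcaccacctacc
TSC2, chr16:2047854-2047893, plus strand: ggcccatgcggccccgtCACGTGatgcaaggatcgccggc

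The core begins at position -14 relative to the annotated start in LAMTOR4 and at positions -112 in RRAGC, -114 in TSC2 and -165 in LAMTOR1 relative to it. RRAGB holds 3 cores, at positions -115, -25 and 7, and the core of NPRL3 lies at position 25. A second motif, TTGCATCA (bound by C/EBP-ATF4 pairs, both strands searched), was found in TSC2 alone among the matched members. It was present in 1.08% of all genes with a window and in 0.866% of all windows. In TSC2 it shares 2 bases with the E-box core. The FOXO motif GTAAACA (both strands) was found in 0 of the 29 matched genes, beside 4.19% of all genes with a window (3.42% of all windows). These matches describe letters in a window and no factor binding was measured. The fitted log2 fold changes of genes with and without the E-box did not differ in 1 direction across the comparisons. For starvation the 6 genes with it had a median of 0.17 in vector cells, beside 0.19 for the other 23. The medians were 0.34 and 0.02 in TRPML3 cells and 0.25 and 0.09 on average. With the E-box 6 of 6 values were above 0 in each of these comparisons. Of all tested genes 49.4%, 51.2% and 50.7% were above 0 in the same order. The average is made from the other comparisons, so these counts are not separate. Without it 15 of 23 were above 0 in vector cells, 12 in TRPML3 cells and 14 on average. For TRPML3 the medians with and without it were -0.21 and 0.11 in fed cells (2 of 6 and 14 of 23 above 0). They were 0.01 and 0.00 in starved cells (3 of 6 and 11 of 23) and -0.10 and 0.01 on average (2 of 6 and 12 of 23). None of these genes passed the test, and the difference between both sets was not tested.

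Transcript levels were compared between genes only per length, as CPM per kilobase of merged exons (GENCODE release 29) averaged over the 12 libraries. Of the 34 genes, 26 lay above the median of the 17130 tested genes with a length. Within mTORC1 the kinase MTOR was highest at 12.55 CPM per kb, followed by AKT1S1 (the inhibitory subunit PRAS40) at 5.78, MLST8, which binds the kinase domain, at 5.18 and the inhibitory subunit DEPTOR at 4.46. RPTOR, the scaffold that recruits substrates, was lowest at 2.14, and MTOR exceeded it in 12 of 12 libraries by 3.29-fold to 60.0-fold. MLST8, AKT1S1 and DEPTOR overlap in their ranges per length across the libraries.

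RHEB stood at 40.8 CPM per kb, above TSC2 in 12 of 12 libraries, by a median of 11.04-fold by merged exons and 6.08-fold by the longest transcript. The subunits TSC1 (stabilising), TSC2 (GTPase-activating) and TBC1D7 stood at 5.64, 3.60 and 1.93 CPM per kb. TSC2 was below TSC1 in every library by merged exons but above it in 6 of 12 by the longest transcript, so the order of these genes rests on the length used. RHEB shares sequence with a pair of processed copies in the table: RHEBP1 matched its transcript at 551 of 556 aligned bases (99.1%) and RHEBP2 at 592 of 599 (98.8%). Their counts came to 4.01% to 13.8% and 11.3% to 22.4% of those of RHEB, so the split of reads between the copies is uncertain.

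In the lysosomal scaffold LAMTOR5 led with 47.5 CPM per kb, followed by the GTPases RRAGA (33.65) and RRAGC (25.3). The order of these GTPases rests on the length used: RRAGC exceeded RRAGA in 3 of 12 libraries by merged exons and in 11 of 12 by the longest transcript, where it stood at 47.8 CPM per kb. LAMTOR4, LAMTOR1, LAMTOR3 and LAMTOR2 followed at 9.53, 8.31, 7.88 and 6.96, RRAGB at 5.81 and SLC38A9, the arginine transporter and sensor of the lysosome, at 1.65. RRAGA and RRAGB encode interchangeable partners of RRAGC, and their transcripts are 81.6% identical over 1190 aligned bases. RRAGA exceeded RRAGB in 12 of 12 libraries, by 1.29-fold to 12.1-fold, and in 11 of 12 by the longest transcript. LAMTOR5 exceeded LAMTOR2 by 4.42-fold to 23.9-fold in 12 of 12 libraries although both proteins sit in the same complex.

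Of the GATOR genes, SEC13 (14.9 CPM per kb) and SEH1L (11.6), whose proteins also serve the nuclear pore, were highest. MIOS, NPRL2 and WDR59 stood at 4.73, 4.71 and 2.50, and NPRL3, WDR24 and DEPDC5 at 1.20, 1.11 and 0.864. Among the GATOR1 subunits, NPRL2 exceeded NPRL3 in 12 of 12 libraries by a median of 4.24-fold and DEPDC5 in 12 of 12 by a median of 5.25-fold. By the longest transcript these medians were 2.42-fold and 2.32-fold. SESN3 (11.9) exceeded SESN1 (6.53) in 10 of 12 libraries, the KICSTOR genes ITFG2 and KPTN stood at 2.51 and 2.08, and AMPK ran from the scaffold subunit PRKAB1 (7.90) through the catalytic subunits PRKAA2 (6.34) and PRKAA1 (5.39) to the nucleotide-sensing subunit PRKAG1 (1.96). PRKAA1 exceeded PRKAA2 in 4 of 12 libraries by merged exons and in 7 of 12 by the longest transcript, and their order is not separated.

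**Figure D1:**
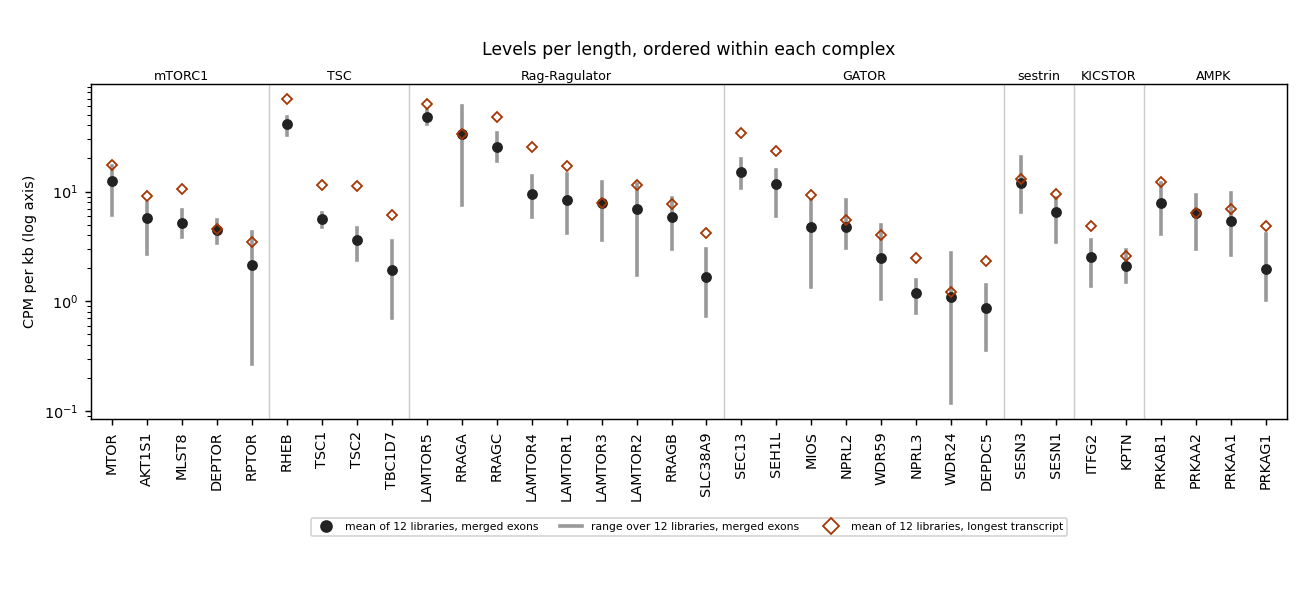
Level of each of the 34 genes in CPM per kilobase (log axis), ordered within each complex. Filled points are means of 12 libraries by merged exons, grey lines the range over libraries, open diamonds the mean by the longest transcript. LAMTOR5 (47.5) and RHEB (40.8) were highest by merged exons, and the lines of WDR24, RPTOR and RRAGA are long.

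The genes differed widely in how stable they were within a group. TSC1 varied by 0.10 (SD of log2 CPM around the group mean), MLST8 by 0.12, LAMTOR5 and RHEB by 0.13 and 0.14 and RRAGC by 0.16, while WDR24 varied by 1.33, RPTOR by 1.123, MIOS by 0.92 and RRAGA by 0.91. The median of the 34 was 0.47, beside 0.54 for all tested genes and 0.46 for the 9874 tested genes in the same range of levels. Between its lowest and its highest library, WDR24 spanned 23.4-fold, RPTOR 15.8-fold, RRAGA 8.08-fold, LAMTOR2 6.77-fold and MIOS 6.23-fold. Subunits of a complex thus ranged from among the steadiest genes of the set to the most scattered, as MLST8 and RPTOR within mTORC1. The vector fed replicate 1 library held the lowest value of 8 genes, beside 9.61% of all tested genes, and TRPML3 fed replicate 3 the highest value of 8, beside 8.16%.

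**Figure D2:**
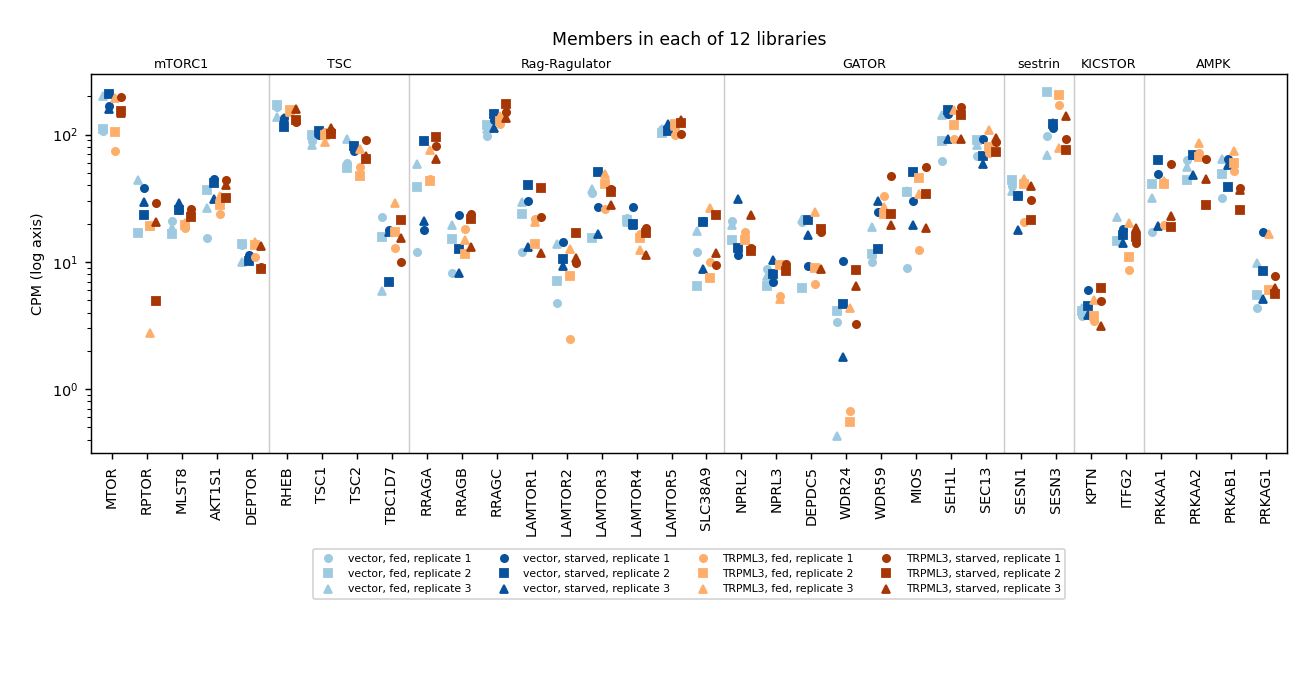
CPM of each of the 34 genes (log axis) in the 12 libraries, with colour for the group and marker shape for the replicate number. Points of TSC1, MLST8, RHEB and LAMTOR5 lie close together, and those of WDR24 span from 0.430 to 10.1 CPM.

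No gene of the set passed an adjusted p of 0.05 (edgeR quasi-likelihood test, Benjamini-Hochberg over all 18030 genes) in any of 7 contrasts, and few genes did anywhere in the table. For TRPML3 against vector in fed cells the count was 0 of 34 beside 0.0111% of all genes, in starved cells 0 of 34 beside 0.00555%, and for the average of both 0 of 34 beside 0.0111%. For starved against fed it was 0 of 34 with the vector beside 0.00555%, 0 of 34 in TRPML3 cells beside 0.0%, and 0 of 34 for the average beside 0.0%. For the difference between the starvation responses of TRPML3 and vector cells (interaction) it was 0 of 34 beside 0.0%. By the DESeq2 Wald test 1 gene, MLST8, passed in the average starvation comparison beside 1.14% of all genes, and 0 passed in the other contrasts. By limma-trend 0 passed in every contrast.

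At an unadjusted p under 0.05 in the edgeR test, the counts also stayed near the shares of the whole table. They were 1 of 34 for TRPML3 in fed cells (2.21% of all genes), 1 in starved cells (2.2%) and 2 for the average TRPML3 effect (2.62%). For starvation they were 1 with the vector (4.44%), 2 with TRPML3 (5.71%) and 2 on average (9.45%), and for the interaction 1 (2.07%). The median standard error of the members' log2 fold changes was 0.36 for a comparison of 3 with 3 libraries and 0.25 for an average effect. Several contrasts share libraries, and the values below are given side by side for that reason.

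The log2 fold changes of the 34 genes centred on 0 for TRPML3 and slightly above 0 for starvation. Their median was 0.06 for TRPML3 in fed cells (20 of 34 above 0) and 0.00 in starved cells (16 of 34), where the median of all genes was -0.01 in both. For average starvation it was 0.23, with 24 of 34 above 0, where all genes had a median of 0.01 and 50.7% above 0. By group, the average starvation medians were 0.37 for mTORC1, 0.25 for Rag-Ragulator (8 of 9 above 0), 0.27 for GATOR (6 of 8), 0.16 for KICSTOR, -0.02 for TSC and RHEB, -0.11 for AMPK and -0.35 for the sestrins. The median of the 34 genes rested on the libraries used: it was 0.02 without the libraries numbered 1, 0.11 without those numbered 2 and 0.41 without those numbered 3. Without the libraries numbered 3 the group medians were 0.41 for mTORC1, 0.63 for Rag-Ragulator, 0.63 for GATOR, 0.48 for KICSTOR and -0.09 for TSC and RHEB. The sestrins then had a median of -0.53, and the AMPK median turned to 0.28.

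**Figure D3:**
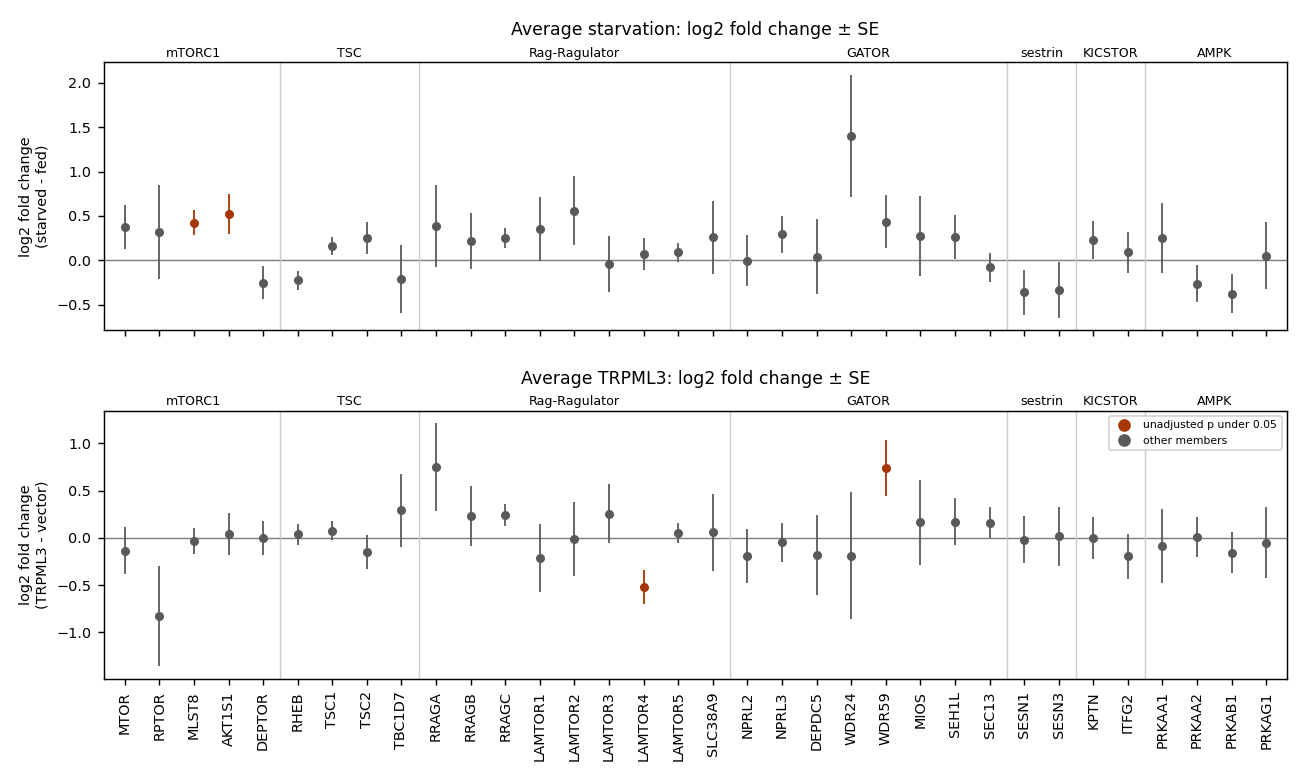
Fitted log2 fold changes ± SE of the 34 genes for starved against fed (upper panel) and TRPML3 against vector (lower panel), each averaged over the other factor. Orange points have an unadjusted p under 0.05: MLST8 and AKT1S1 above 0 in the upper panel, WDR59 above 0 and LAMTOR4 below 0 in the lower one. No point passed the adjusted test.

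Within mTORC1, MLST8 (ENSG00000167965, 16:2204248-2209416 in GRCh38) was the gene whose serum states separated completely. Its product stabilises the kinase domain of mTOR and is also a subunit of mTORC2. Its CPM was 21.1, 16.5 and 18.6 with vector and serum, 25.4, 25.8 and 29.1 with vector when starved, 18.4, 19.6 and 20.4 with TRPML3 and serum, and 25.9, 22.4 and 25.4 with TRPML3 when starved. All 6 starved libraries lay above all 6 fed libraries, a separation in either direction found for 226 of all tested genes (1.25%) and for no other of the 34. The means were 18.7 ± 2.26 (SD, n = 3) and 26.8 ± 2.00 in vector cells and 19.5 ± 1.00 and 24.55 ± 1.90 in TRPML3 cells. The average log2 fold change was 0.43 ± 0.14 (SE), with an adjusted p of 0.391 (edgeR quasi-likelihood test). In vector cells alone it was 0.52 ± 0.20 (adjusted p = 1.0, edgeR). The DESeq2 Wald test gave the average effect an adjusted p of 0.0366, and over the 15 edgeR fits that left out libraries it was at an unadjusted p under 0.05 in 13.

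AKT1S1 encodes PRAS40, which blocks substrate entry to mTORC1 until AKT phosphorylates it. Its CPM was 15.4, 36.85 and 26.65 with vector and serum, 45.1, 41.5 and 31.3 with vector when starved, 23.9, 27.8 and 32.8 with TRPML3 and serum, and 44.3, 31.9 and 40.4 with TRPML3 when starved. The serum states overlapped in both plasmid groups. The average starvation effect was 0.52 ± 0.22 (SE) on the log2 scale (edgeR adjusted p = 0.491), and it ran from 0.22 to 0.71 over the fits that left out libraries. The exons of AKT1S1 overlap in part those of TBC1D17 on the opposite strand, and the use of strand in counting is not given in the sources used here.

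MTOR and RPTOR were chosen after their values were seen. MTOR (1:11106535-11262507), the kinase itself, was at 108, 112 and 202 CPM with vector and serum, 167.0, 208 and 158 with vector when starved, 73.9, 104 and 196 with TRPML3 and serum, and 197, 153 and 147 with TRPML3 when starved. In both plasmid groups the fed library numbered 3 lay at the level of the starved libraries, and the other 4 fed libraries lay below all 6 starved ones. The share of all tested genes with this pattern was not counted. The average starvation effect was 0.37 ± 0.25 (SE, edgeR adjusted p = 0.703) with all libraries and 0.89 ± 0.16 without the libraries numbered 3 (adjusted p = 0.0439). In the latter fit 4.49% of all genes passed. It leaves out the fed libraries already seen at the starved level, so a larger MTOR value was close to fixed in advance. RPTOR was at 17.1, 16.9 and 43.8 CPM with vector and serum, 37.8, 23.6 and 29.5 with vector when starved, 19.1, 19.1 and 2.77 with TRPML3 and serum, and 28.85, 4.91 and 20.7 with TRPML3 when starved. Its lowest values were in a single library of each TRPML3 group, and its average TRPML3 log2 fold change was -0.83 ± 0.53 (SE, edgeR adjusted p = 1.0). Without the libraries numbered 3 the average was -0.34 ± 0.53, and the value in fed cells turned from -0.93 to 0.18. DEPTOR ran from 8.84 to 14.3 CPM over all libraries and had an average starvation log2 fold change of -0.25 ± 0.18 (SE).

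RHEB and TSC1 were among the steadiest genes of the set. RHEB was at 165, 170.0 and 137 CPM in vector fed and 136, 115 and 135 in vector starved cells, which did not overlap, and with TRPML3 at 155, 156 and 151 when fed and 126, 130 and 159 when starved, which did. Its average starvation log2 fold change was -0.22 ± 0.11 (SE, edgeR adjusted p = 0.563). With the counts of RHEBP1 and RHEBP2 added to those of RHEB, the log2 differences between starved and fed means were -0.23 in vector and -0.09 in TRPML3 cells. TSC1 ran from 83.0 to 113 CPM in all 12 libraries, the narrowest within-group spread of the set. Its 3 vector starved values (99.7, 108 and 102) all lay above the vector fed values (88.5, 99.4 and 83.0), the closest pair being 99.7 and 99.4. TSC2 ran from 47.1 to 91.9 CPM and TBC1D7 from 5.88 to 29.2 CPM, with overlap of the groups in every comparison of 3 with 3 libraries.

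In the Rag-Ragulator group LAMTOR4, a small Ragulator subunit (ENSG00000188186, 7:100148907-100155944), was the gene whose plasmid groups separated completely. Its CPM was 21.9, 21.4 and 20.5 in vector fed and 27.0, 19.95 and 19.65 in vector starved cells, against 16.6, 15.3 and 12.5 with TRPML3 and serum, and 18.5, 16.9 and 11.3 with TRPML3 when starved. All 6 TRPML3 libraries lay below all 6 vector libraries, a separation in either direction found for 28 of all tested genes (0.155%). The average log2 fold change was -0.52 ± 0.18 (SE, edgeR adjusted p = 1.0), with -0.52 ± 0.26 in fed and -0.51 ± 0.26 in starved cells. Over the 15 fits that left out libraries it ran from -0.60 to -0.42 and was at an unadjusted p under 0.05 in 13. Of the exon bases of LAMTOR4, 18.4% are shared with TRAPPC14 on the opposite strand, whose CPM was 2.42 to 9.45 in vector and 1.72 to 4.40 in TRPML3 libraries. Its part in the LAMTOR4 counts was not tested. For the other Ragulator subunits the average TRPML3 log2 fold changes were -0.21 ± 0.36 for LAMTOR1, -0.01 ± 0.39 for LAMTOR2, 0.26 ± 0.31 for LAMTOR3 and 0.05 ± 0.11 for LAMTOR5 (SE, each with an edgeR adjusted p of 1.0). The difference between LAMTOR4 and these subunits was not tested.

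RRAGC, the partner of RRAGA and RRAGB in the Rag heterodimer, was at 97.85, 118 and 111 CPM in vector fed and 121, 128 and 140 CPM in TRPML3 fed cells, which did not overlap. In starved cells it was at 131, 146 and 113 with vector and 150, 174 and 136 with TRPML3, which did. Its average effects were 0.24 ± 0.11 for TRPML3 (SE, edgeR adjusted p = 1.0) and 0.25 ± 0.11 for starvation (adjusted p = 0.544). RRAGA, a gene with 1 exon, was named after its values were seen for its scatter: 11.9, 38.6 and 59.1 CPM with vector and serum, 17.7, 88.4 and 21.1 with vector when starved, 44.5, 43.4 and 75.8 with TRPML3 and serum, and 81.4, 95.8 and 63.95 with TRPML3 when starved. Its groups overlapped in every comparison of 3 with 3 libraries, and its average TRPML3 log2 fold change of 0.75 ± 0.47 (SE, edgeR adjusted p = 1.0) did not pass. In each of the 6 same-numbered pairs of a vector and a TRPML3 library in the same serum state, both RRAGA and RRAGC were higher in the TRPML3 library. The share of all tested genes with this pattern was not counted, so it is a description only. Whether the number pairs these libraries is not stated by the labels. RRAGB ran from 8.10 to 23.6 CPM and SLC38A9 from 6.49 to 26.6 CPM with no separation of groups.

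**Figure D4:**
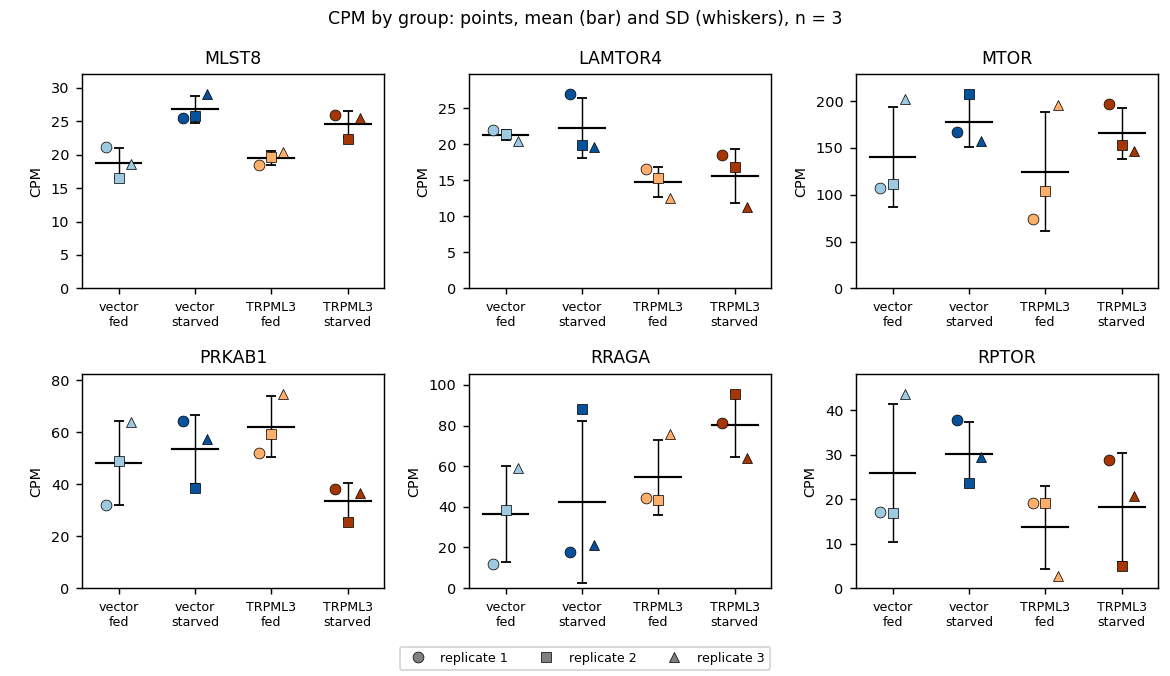
CPM in each library of 6 genes, with the group mean (bar) and SD (whiskers, n = 3) and marker shape for the replicate number. MLST8 is higher in all starved libraries, LAMTOR4 lower in all TRPML3 libraries, MTOR high in the fed libraries numbered 3, PRKAB1 lowest in TRPML3 starved cells, and RRAGA and RPTOR scatter within groups.

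Among the GATOR genes, WDR59, a GATOR2 subunit (16:74871367-75000173), was higher in TRPML3 fed than in vector fed cells. Its CPM was 9.97, 11.6 and 18.7 in vector fed and 32.7, 23.9 and 27.0 in TRPML3 fed cells, with no overlap, and 24.85, 12.7 and 30.3 in vector starved and 47.1, 23.99 and 19.45 in TRPML3 starved cells, with overlap. The log2 fold change was 1.05 ± 0.42 in fed cells (SE, edgeR adjusted p = 1.0) and 0.74 ± 0.30 on average (adjusted p = 1.0). The fed value ran from 0.74 to 1.41 over the fits that left out libraries, and the average from 0.37 without the libraries numbered 1 to 1.16 without those numbered 3. WDR24, another GATOR2 subunit, was named after its values were seen. It was at 3.38, 4.11 and 0.430 CPM with vector and serum, 10.1, 4.71 and 1.80 with vector when starved, 0.672, 0.547 and 4.30 with TRPML3 and serum, and 3.27, 8.685 and 6.48 with TRPML3 when starved. The serum states overlapped in both plasmid groups. Its average starvation log2 fold change was 1.40 ± 0.69 (SE, edgeR adjusted p = 0.565) with all libraries and 2.14 ± 0.42 without the libraries numbered 3 (adjusted p = 0.0492). That second average hides a split by plasmid: the value was 3.29 in TRPML3 cells and the interaction 2.30. TRPML3 against vector in fed cells was then -2.60, where TRPML3 fed replicates 1 and 2 held 28 and 21 counts. The serum states still overlapped over both plasmids (4.11 CPM fed, 3.27 starved). Of its exon bases, 35.7% are shared with an annotated transcript on the opposite strand, so its counts are uncertain where strand was not used.

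The GATOR1 genes NPRL2, NPRL3 and DEPDC5, whose products together form the GTPase-activating complex for the A/B Rags, showed no separation of groups in the comparisons of 3 with 3 libraries. NPRL2 had the smallest p of the set in a test of the replicate number, where its edgeR adjusted p was 0.645. It was at 21.1, 14.96 and 19.3 CPM with vector and serum, 11.3, 12.9 and 31.1 with vector when starved, 17.1, 14.85 and 16.5 with TRPML3 and serum, and 12.8, 12.2 and 23.5 with TRPML3 when starved, and its highest value in each starved group was in the library numbered 3. In that test 0 of 34 genes passed an adjusted p of 0.05 beside 0.0% of all genes, and 0 of 34 an unadjusted p of 0.05 beside 8.45%. Its term is a shift shared by all groups. Shifts of number 3 with opposite signs in fed and starved cells offset each other in this term, so the test can miss them. For MTOR they offset only in part, and its term for number 3 against number 1 was 0.48 on the log2 scale. By the DESeq2 likelihood ratio test 0 passed the adjusted and 1 the unadjusted threshold.

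The sestrins, which bind GATOR2, were both lower on average in starved cells without passing the test. SESN1 was at 39.3, 43.8 and 36.0 CPM in vector fed and 33.4, 32.8 and 17.8 in vector starved cells, which did not overlap, and with TRPML3 at 20.6, 41.0 and 44.7 when fed and 30.4, 21.5 and 39.8 when starved, which did. Its average starvation log2 fold change was -0.36 ± 0.25 and that of SESN3 was -0.34 ± 0.31 (SE, edgeR adjusted p = 0.719 and 0.808). Without the libraries numbered 3 these values were -0.28 and -0.79. The KICSTOR genes KPTN (3.16 to 6.20 CPM) and ITFG2 (8.64 to 22.5 CPM) had average starvation log2 fold changes of 0.23 and 0.09, and of 0.53 and 0.42 without the libraries numbered 3.

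In the AMPK group the fitted starvation values of the 4 members were above 0 in vector cells and below 0 in TRPML3 cells. The log2 fold changes of starved against fed were above 0 for 4 of 4 with the vector (median 0.37) and below 0 for 4 of 4 with TRPML3 (median -0.64). With TRPML3 in fed cells 4 of 4 log2 fold changes were above 0 (median 0.41), and with TRPML3 in starved cells 4 of 4 were below 0 (median -0.55). The interaction values of all 4 were below 0, from -0.60 for PRKAA1 to -1.21 for PRKAG1, with a median of -0.98 where all genes had a median of 0.00. These contrasts share libraries and some follow from the others, so their signs are not separate observations. The sign pattern was described after the values were seen, and the share of all tested genes with it was not counted. Of the 4 members, 0 passed an adjusted p of 0.05, and 1 was at an unadjusted p under 0.05 in the interaction (edgeR). Without the libraries numbered 3 the interaction median was -1.07 with 4 of 4 values below 0, but the starvation values in TRPML3 cells had a median of -0.22 with 2 of 4 above 0. In the vector pair numbered 3 the starved-minus-fed differences were below 0 for all 4, at -0.72 for PRKAA1, -0.21 for PRKAA2, -0.16 for PRKAB1 and -0.92 for PRKAG1. PRKAB2, the other scaffold subunit, is not in the set and was named after its values were seen. Its fitted values had the opposite sign in all 5 comparisons (edgeR adjusted p of 0.991 or more). They were -0.70 for starvation with the vector and 0.62 with TRPML3, and -1.24 for TRPML3 in fed and 0.09 in starved cells. Its interaction value was 1.32 ± 2.02 (SE). PRKAG2, a further subunit outside the set, was also named after its values were seen. It had the sign of the members in all 5 comparisons, at 0.14, -0.60, 0.71, -0.03 and -0.74 in the same order. MCOLN3 also differed between the TRPML3 libraries, at 6211, 4929 and 39970 CPM for numbers 1 to 3 when fed and 41360, 58220 and 16900 when starved. It was thus higher when starved for numbers 1 and 2 and lower for number 3. The TRPML3 starved-minus-fed differences of PRKAA1, PRKAA2, PRKAB1 and PRKAG1 were 1.60, -0.16, -0.45 and 0.345 for number 1. They were -1.11, -1.27, -1.22 and -0.11 for number 2 and -0.92, -0.94, -1.03 and -1.40 for number 3. The part of MCOLN3 in the AMPK values was not tested.

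PRKAB1, the subunit that holds the AMPK trimer together (12:119667753-119681630), was at 31.85, 48.9 and 64.2 CPM with vector and serum, 64.55, 38.7 and 57.4 with vector when starved, 52.0, 59.5 and 75.0 with TRPML3 and serum, and 38.2, 25.5 and 36.6 with TRPML3 when starved. The TRPML3 starved libraries lay below all TRPML3 fed and all vector starved libraries, in the latter case narrowly (38.2 against 38.7). The log2 fold change of starved against fed was -0.90 ± 0.31 in TRPML3 cells (SE, edgeR adjusted p = 0.83). That of TRPML3 against vector was -0.68 ± 0.30 in starved cells (adjusted p = 1.0), and the interaction was -1.04 ± 0.43 (adjusted p = 1.0). PRKAA2, a catalytic subunit, was at 63.3, 44.1 and 55.8 CPM with vector and serum, 69.2, 69.1 and 48.2 with vector when starved, 71.7, 67.1 and 86.3 with TRPML3 and serum, and 64.0, 27.85 and 44.9 with TRPML3 when starved. Its TRPML3 fed libraries lay above all vector fed and all TRPML3 starved libraries. Its starvation log2 fold change in TRPML3 cells was -0.72 ± 0.30 (SE, edgeR adjusted p = 0.857) and ran from -1.08 to -0.46 over the fits that left out libraries. PRKAA1, the other catalytic subunit, ran from 17.2 to 63.0 CPM and PRKAG1 from 4.34 to 17.2 CPM with overlap of the groups.

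Counted over the set, groups of 3 did not overlap for 4 genes in TRPML3 fed against vector fed cells (PRKAA2, RRAGC and WDR59 higher, LAMTOR4 lower), beside 7.09% of all genes. They did not overlap for 2 genes in starved cells (LAMTOR4 and PRKAB1 lower), beside 6.58%. For starved against fed they did not overlap for 4 genes in vector cells (MLST8 and TSC1 higher, RHEB and SESN1 lower), beside 9.93%, and for 3 in TRPML3 cells (MLST8 higher, PRKAA2 and PRKAB1 lower), beside 11.2%.

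The starved-minus-fed difference of same-numbered libraries followed the replicate number more than the plasmid. In vector cells the median difference of the 34 genes on the log2 scale (CPM + 0.1) was 0.44 for number 1 (26 of 34 above 0), 0.25 for number 2 (24) and -0.19 for number 3 (12). In TRPML3 cells it was 0.51 (26), 0.09 (20) and -0.19 (10). The median over all genes lay between -0.03 and 0.03 in all 6 pairs. Of the 34 genes, 8 (ITFG2, KPTN, LAMTOR1, LAMTOR2, MTOR, RRAGA, SEH1L and TSC2) were higher in starved cells for numbers 1 and 2 and lower for number 3 in both plasmid groups, a pattern held by 8.54% of all tested genes. SEH1L, for example, differed by 1.21 and 0.81 in vector and by 0.84 and 0.25 in TRPML3 cells for numbers 1 and 2, and by -0.64 and -0.76 for number 3.

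**Figure D5:**
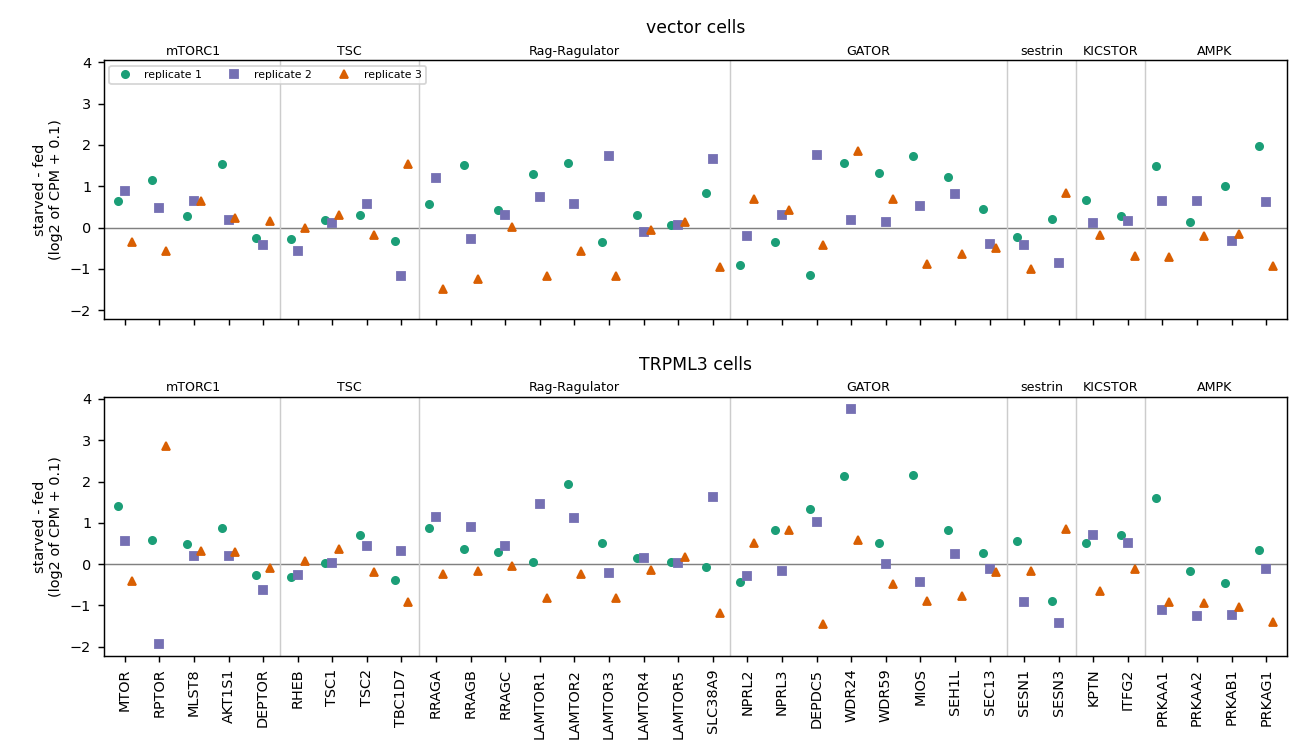
Starved-minus-fed difference in log2(CPM + 0.1) of each gene between same-numbered libraries, in vector (upper) and TRPML3 cells (lower), with colour and marker for the replicate number. For number 3 only 12 of 34 values in vector and 10 of 34 in TRPML3 cells are above 0, against 20 to 26 for numbers 1 and 2.

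With the 4 libraries numbered 3 left out, 15 of the 34 genes were at an unadjusted p under 0.05 for average starvation (edgeR; 12 higher and 3 lower in starved cells), beside 23.3% of all genes. MTOR and WDR24 passed an adjusted p of 0.05, which is 2 of 34 beside 4.49% of all genes, and SEH1L followed at an adjusted p of 0.0553. In the 4 starved and 4 fed libraries numbered 1 and 2 the serum states did not overlap for 9 genes: KPTN, LAMTOR2, MLST8, MTOR, RRAGC, SEH1L and TSC2 higher, NPRL2 and RHEB lower. The share of all tested genes was 20.2%. The values with and without these libraries stand side by side because the labels give no reason to remove them. Number 3 was singled out in these same data, so the values without it are a description and no separate test.

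The wider pathway gave no called gene either. Of 60 further genes in 7 lists, 59 had a row and 58 were tested, and 0 of 58 passed an adjusted p of 0.05 in any contrast (edgeR). At an unadjusted p under 0.05 there were 2 for TRPML3 in fed cells (2.21% of all genes), 0 in starved cells (2.2%) and 0 on average (2.62%). For starvation there were 1 with the vector (4.44%), 3 with TRPML3 (5.71%) and 3 on average (9.45%; 1 higher, 2 lower), and there was 1 for the interaction (2.07%). The average starvation medians were 0.13 for 14 mTORC1 targets, 0.11 for the 3 folliculin complex genes, -0.05 for 4 mTORC2 genes, -0.08 for 5 assembly factors, -0.09 for 8 further nutrient-arm genes, -0.13 for 7 AMPK partners and -0.15 for 17 growth factor arm genes.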

How the data were processed

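Polyadenylated RNA of 12 HEK293T libraries was sequenced, with group and number read from the titles. The authors deposited whole-number counts per gene, with Ensembl identifiers and symbols, and a second table of normalized signal (count divided by a library size factor). The submitters' processing notes name FastQC, fastp, HISAT2, StringTie, DESeq2 and the build GRCh38 without roles. The annotation, the use of strand and whether the counts are direct or rounded estimates are not given in the sources used here. Every row carries a gene name.

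Counts were tested with edgeR 4.0.16 in R 4.3.3: filterByExpr on group, TMM scaling, a robust quasi-likelihood fit of 12 libraries with 1 coefficient per group (8 residual degrees of freedom), 7 contrasts, and Benjamini-Hochberg adjustment at 0.05 over 18030 genes. Standard errors come from the log2 fold change and its F. The replicate number was tested as a term beside group. CPM used TMM-scaled library sizes; lengths and positions came from GENCODE release 29 (GRCh38), promoters from RefSeq (GRCh38.p14). The procedure was checked on simulated data. Alternatives were DESeq2 1.42.0, limma 3.58.1 (its trend method on log2 of the deposited signal + 1), other scalings and filters, a replicate block, only the 6 libraries compared, and every library or replicate number left out.

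All 34 members are named with their level; values per library and tests are given for members at an unadjusted p under 0.05 in a contrast or, with none, for the one with the smallest p. Genes given in detail outside this rule are RHEB, TSC1, RRAGC and SESN1 (groups of 3 that did not overlap) and those said to be chosen after their values were seen. The members and lists were chosen with earlier results of these data known.

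To look for pairing, the deviations of log2 CPM from the group mean were correlated between libraries over tested genes. For these deviations, same-numbered vector and TRPML3 libraries had r of 0.11, 0.15 and 0.33 in fed cells, for 1, 2 and 3. In starved cells same-numbered r was 0.13, 0.095 and 0.32, and between serum states of a plasmid it lay between -0.08 and 0.01. Numbers 1 and 2 agreed as well across numbers: r was 0.115 for vector fed 1 with TRPML3 fed 2 and 0.116 for vector starved 2 with TRPML3 starved 1. Deviations within a group cancel in sum, so a shift of number 3 alone also raises r between numbers 1 and 2. Only number 3 stood apart from 1 and 2, so pairing by number is not shown, and the main fit used no block. No pair of libraries agreed within counting noise (chi-square per degree of freedom of at least 153 in 66 pairs).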

Additional observations from a re-analysis of the deposited data

How the results depend on the processing

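The 12 log2 fold changes refitted under every alternative were of WDR59, PRKAB1, MLST8, PRKAA2, AKT1S1, MTOR, WDR24 and LAMTOR4. They kept their direction in all 281 refits. Of these refits 3 passed the adjusted test: MLST8 by DESeq2, and MTOR and WDR24 without the libraries numbered 3. The 12 values were chosen in the same data, by a small p or after they were seen, and the refits share most libraries. A kept direction was thus close to fixed in advance. RPTOR was not among them, and its value for TRPML3 in fed cells turned from -0.93 to 0.18 without the libraries numbered 3. Counts of members at an unadjusted p under 0.05 are small and moved with the setting; the cause was not tested. For TRPML3 in starved cells (1) they were 0 with median-of-ratios factors, limma-trend or 6 libraries alone, and 2 with library size only or DESeq2. For the interaction (1) they were 2 with library size only, no filter, DESeq2 or limma-trend. They were 4 for average TRPML3 by limma-trend (2), 1 for the replicate number by DESeq2 (0), 0 for starvation in vector cells (1) and 1 in TRPML3 cells (2) with 6 libraries alone, and the adjusted count for average starvation was 1 by DESeq2 (0). With the replicate number as a block, the unadjusted counts were 2 for TRPML3 in fed cells, 2 in starved cells, 2 for the interaction and 1 for average starvation, and 0 members passed the adjusted test in any contrast. Library size alone moved the median of all genes by -0.10 for TRPML3 in starved cells.

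Leaving out libraries gave unadjusted counts of 0 to 3 for TRPML3 in fed cells, 0 to 2 in starved cells, 0 to 4 for starvation in vector cells, 0 to 5 in TRPML3 cells, 0 to 2 for the interaction, 1 to 15 for average starvation, 0 to 3 for average TRPML3 and 0 to 1 for the replicate number. The adjusted count for average starvation was 0 to 2 and the other adjusted counts stayed at 0. Where a single library was left out of a group, the remaining pair was assumed to vary like the other groups. Levels per length moved beyond the SD over libraries in 23 of 102 alternatives.

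With 3 libraries a group and a common biological coefficient of variation of 0.527, a p above the threshold does not show that levels were equal. At this depth 3 counts correspond to at most 0.0906 CPM.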

Other observations

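Among genes around the complexes, 3 were chosen after their values were seen. DDIT4, whose product REDD1 restrains mTORC1 through TSC, was at 94.8, 81.7 and 33.9 CPM with vector and serum, 35.0, 34.1 and 28.3 with vector when starved, 83.75, 97.8 and 43.1 with TRPML3 and serum, and 32.0, 43.9 and 41.8 with TRPML3 when starved. The fed libraries numbered 3 lay within the starved range, and the other 4 fed libraries lay above all 6 starved ones. The share of all tested genes with this pattern was not counted. The average starvation log2 fold change was -1.02 ± 0.27 (SE, edgeR quasi-likelihood adjusted p = 0.352). MAF1, a repressor of RNA polymerase III that mTORC1 inhibits, was at 37.8, 24.7 and 37.2 CPM with vector and serum, 49.3, 41.4 and 55.9 with vector when starved, 22.0, 28.6 and 36.4 with TRPML3 and serum, and 38.1, 48.6 and 41.7 with TRPML3 when starved. All 6 starved libraries lay above all 6 fed ones, a separation in either direction found for 1.25% of all tested genes. The log2 fold change was 0.56 ± 0.18 (SE, edgeR adjusted p = 0.383).

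ULK1, the autophagy-starting kinase that mTORC1 phosphorylates, was at 25.4, 28.5 and 23.8 CPM in vector fed and 11.2, 3.13 and 12.5 CPM in TRPML3 fed cells. These groups did not overlap, as for 7.09% of all tested genes. In starved cells it was at 23.85, 12.9 and 4.84 with vector and 15.2, 15.1 and 18.01 with TRPML3, which overlapped. The log2 fold change for TRPML3 in fed cells was -1.53 ± 0.58 (SE, edgeR adjusted p = 1.0).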
